A study of Homo sapiens with 8 samples.

Results

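The WWC and Hippo pathway genes described here are 10 genes of the Hippo signalling cascade: the WWC family WWC1, WWC2 and WWC3, the kinases LATS1 and LATS2, the co-activators YAP1 and WWTR1 (the gene of TAZ), the scaffold AMOTL2, the transcription factor TEAD1 and the target gene ANKRD1. They were chosen by gene name, with results of these same libraries already known, and are 10 of the 58735 genes listed in the raw counts. Of the 10, 9 had enough reads to be tested, and ANKRD1 did not. The difference between miR-155OE and CTRL was known when the genes were taken up, WWC3 having stood out in it. Each gene's difference is therefore given as a description. The fitted intervals and calls printed for these genes further below come from the same comparison and take no account of that choice. They are not read as support for a difference.

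The libraries hold RNA of EPC2-hTERT, human epithelial cells of the esophagus immortalised with telomerase. One group of 4 libraries is a control (CTRL), which the labels name only as control, and the other group of 4 (miR-155OE) is a stable line that overexpresses miR-155-5p from a lentiviral construct. Both groups were grown on inserts with 0.4 µm pores for 2 days in keratinocyte medium with bovine pituitary extract and epidermal growth factor. Calcium was set to 1.8 mM for 5 days before exposure of the cells to air, under which they stratify. Each group is 1 cell line, and the labels do not say whether the overexpressing line is a clone or whether the 4 libraries of a group are separate cultures, so p-values measure only the spread between these libraries, which may be technical.

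Total counts were 34.1 to 52.7 M (mega) in CTRL and 33.4 to 40.6 M in miR-155OE, and mitochondrially encoded genes took 1.23 to 2.78% and 1.01 to 2.92% of them. The host gene MIR155HG and the hairpin gene MIR155 had 0 reads in all 8 libraries, and the overexpression could not be checked in these counts. The defining genes of stratified squamous epithelium were present, with KRT5 at 9910 to 11833 CPM (counts scaled by library size) in CTRL and 8120 to 11178 CPM in miR-155OE. KRT4, a keratin of the differentiated esophageal layers, was lower with miR-155-5p, at 60.4 to 126 CPM in the controls against 3.18 to 47.9 CPM. SOX2 was also lower without overlap, at 8.10 to 12.4 CPM in the controls against 2.48 to 7.33 CPM. KRT13 ranged from 4.15 to 17.6 CPM in the controls and from 0.372 to 8.17 CPM with miR-155OE. The groups overlapped for KRT14, TP63, CDH1 and DSG3, the rest of the list. The part of KRT4, SOX2 and KRT13 in the differences given here was not tested. Of the fibroblast markers 4 of 6 had no read in any library, but COL1A1 ranged from 92.8 to 145 CPM in the controls and from 98.1 to 221 CPM with miR-155OE. The whole immune list summed to 0.0592 to 0.289 CPM in the controls against 0.196 to 0.383 CPM with miR-155OE.

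Hippo signalling is a kinase cascade that couples cell contact, polarity and mechanical load to growth. The kinases STK3 and STK4 activate LATS1 and LATS2, which phosphorylate YAP1 and TAZ and so keep them out of the nucleus. Unphosphorylated YAP1 and TAZ bind the TEAD factors and switch on genes such as CCN1, CCN2, ANKRD1 and AMOTL2. WWC proteins, of which WWC1 is also called KIBRA, are cytoplasmic scaffolds with WW domains that bring LATS kinases together with their activators. In stratified epithelia YAP1 activity is a feature of the basal, proliferating layer.

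The microRNA acts through its seed, bases 2 to 8 from the 5′ end, which pairs with matching letters in 3′ UTRs. The mature sequence is printed with its seed in capitals, from RefSeq on GRCh38.p14 (chromosome 21, 25573983 to 25574006, plus strand):
hsa-miR-155-5p: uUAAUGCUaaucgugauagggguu
A search of the longest 3′ UTR annotated for each gene (GENCODE release 29, GRCh38) for AGCATTA, AGCATTAA or GCATTAA, read on the transcript's strand, found 1 match in each of 4 of the 10 genes. They are shown because they are where the overexpressed microRNA could pair with these transcripts, with the match in capitals:
WWC1: acagaaacaaaaaaaaccAGCATTAAa
WWC2: ctcactcagcctgaatttGCATTAAgt
LATS2: cttttcaggaccttcactGCATTAAaa
WWTR1: cgggaaagtagcagcagcAGCATTAgt
The matches lie on chromosome 5 at 168469241 to 168469248 (WWC1, plus strand), chromosome 4 at 183316529 to 183316535 (WWC2, plus strand), chromosome 13 at 20974645 to 20974651 (LATS2, minus strand) and chromosome 3 at 149520109 to 149520115 (WWTR1, minus strand). WWC3, LATS1, YAP1, AMOTL2, TEAD1 and ANKRD1 had no match in the UTR searched. Over all tested genes with such a UTR, 17.6% of 12512 held a match, but their median UTR was 1382 bases long and that of these 10 genes 3385 bases. A match is a stretch of letters and was not tested as a site.

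Within CTRL the 10 genes spanned a wide range of levels, compared here per kb of the gene length in the deposited file. AMOTL2, a scaffold of the angiomotin family that binds YAP1 at junctions, was the most abundant at 84.1 ± 2.59 CPM per kb, followed by YAP1 at 58.1 ± 5.77 CPM per kb (SD, n = 4). WWC1 came next at 11.3 ± 0.874 CPM per kb. TEAD1 (7.83 ± 0.817 CPM per kb), WWTR1 (6.21 ± 0.547), WWC3 (5.93 ± 0.798) and LATS2 (5.80 ± 0.150) followed, and each of these overlapped its neighbour in that order within the 4 CTRL libraries. LATS1 (4.65 ± 0.350 CPM per kb) and WWC2 (2.42 ± 0.278 CPM per kb) were lower, and neither overlapped the gene above it. In miR-155OE, WWC3 stood at 15.7 ± 2.06 CPM per kb, between YAP1 (57.3 ± 4.15) and WWC1 (9.66 ± 1.22).

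**Figure D1:**
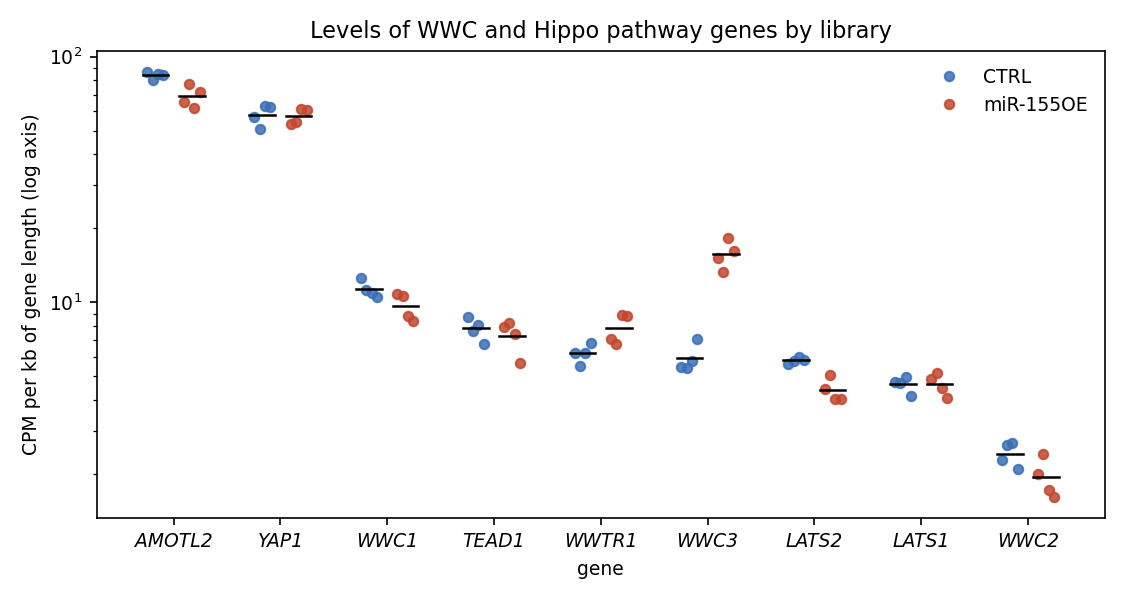
Level of each tested gene in each library, in CPM per kb of gene length on a log axis, with CTRL in blue, miR-155OE in red and the group mean as a black line. WWC3 moved from 5.93 CPM per kb in CTRL to 15.7 CPM per kb in miR-155OE, while YAP1 and LATS1 lay at about the same level in both groups.

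WWC3 (ENSG00000047644; GRCh38, chromosome X, 10015562 to 10144478, plus strand) differed most among the 9 tested. It stood at 38.7, 38.4, 41.1 and 50.5 CPM in CTRL replicates 1 to 4 and at 107, 94.8, 130 and 115 CPM in miR-155OE replicates 1 to 4. Each miR-155OE library lay above each CTRL library, and the lowest of them, replicate 2, was at 94.8 CPM against a highest CTRL value of 50.5 CPM. The fitted log2 fold change was 1.40 (SE 0.12, 95% interval 1.15 to 1.66), a 2.65-fold higher level. This interval, like those that follow for the chosen genes, takes no account of how the genes were chosen. By same-numbered pair the log2 differences were 1.47, 1.30, 1.66 and 1.18. In bulk RNA a higher level in each cell and more cells of a type that expresses the gene cannot be told apart, here or for any gene that follows. Its antisense neighbour WWC3-AS1, which overlaps it, had no read in any library.

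The other WWC genes lay the other way. WWC1 (ENSG00000113645; chromosome 5, 168291651 to 168472303) stood at 126, 113, 109 and 106 CPM in the controls against 109, 107, 88.8 and 84.8 CPM with miR-155OE, with a log2 fold change of −0.22 (SE 0.10). WWC2 (ENSG00000151718; chromosome 4, 183099293 to 183320777) stood at 22.7, 26.1, 26.7 and 20.8 CPM in the controls against 20.01, 23.99, 17.2 and 16.1 CPM with miR-155OE, with a log2 fold change of −0.32 (SE 0.13). The groups overlapped for both genes, and in 4 of 4 same-numbered pairs each was lower in miR-155OE. Both are genes whose 3′ UTR holds a seed match, and WWC3 is not. Of the other members, LATS2 holds a match and was lower, WWTR1 holds one and was higher, and AMOTL2 holds none and was lower. Each of these went the same way in 4 of 4 pairs. The part of the matches in the levels was not tested.

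The make-up of the family changed with WWC3. WWC3 gave 26.9, 28.1, 29.9 and 35.99% of the summed WWC level per kb in CTRL and 54.1, 50.5, 63.4 and 61.6% in miR-155OE, while WWC1 went from 57.5 ± 3.57% to 35.4 ± 4.78% and WWC2 from 12.3 ± 1.64% to 7.13 ± 1.43% (each n = 4, ± SD). The sum of the family was 19.6 ± 0.461 CPM per kb in CTRL and 27.3 ± 1.26 CPM per kb in miR-155OE (each n = 4, ± SD). WWC1 was thus the leading family member in each CTRL library and WWC3 in each miR-155OE library.

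**Figure D2:**
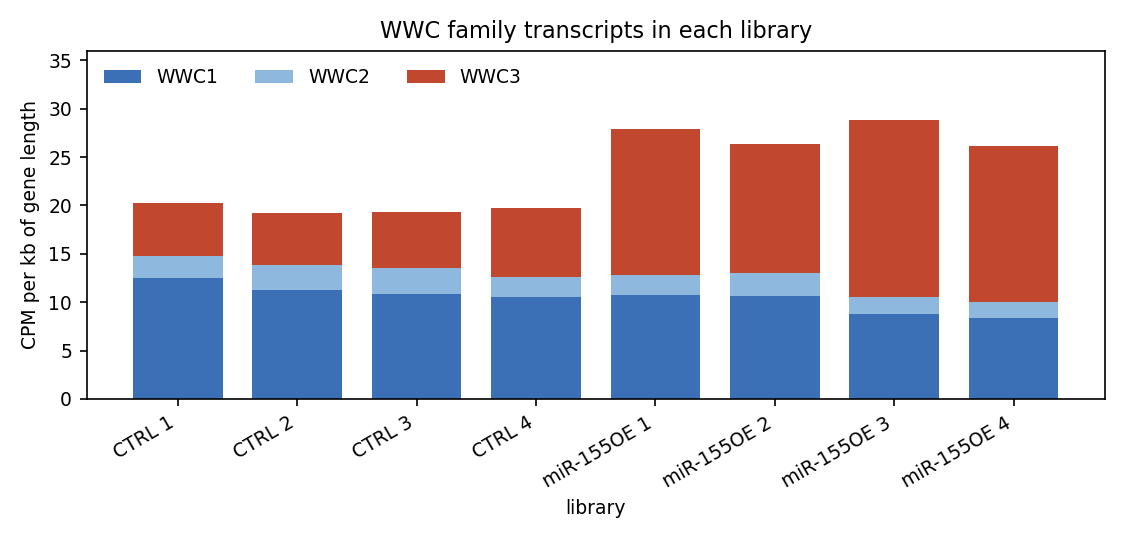
Summed level of WWC1, WWC2 and WWC3 in each library, in CPM per kb of gene length, stacked from 0. The total was 19.6 CPM per kb in CTRL and 27.3 CPM per kb in miR-155OE, and the red WWC3 part is the largest in each miR-155OE bar.

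Of the LATS kinases, which phosphorylate YAP1 and TAZ, LATS2 differed and LATS1 hardly did. LATS2 (ENSG00000150457; chromosome 13, 20973032 to 21061547, minus strand) stood at 31.3, 32.2, 33.4 and 32.6 CPM in the controls against 24.8, 28.2, 22.6 and 22.6 CPM with miR-155OE. The groups did not overlap, and the CTRL libraries varied least among the 9 tested genes, with a coefficient of variation of 2.58%. The log2 fold change was −0.40 (SE 0.08, 95% interval −0.58 to −0.22), and the pairs gave −0.34, −0.19, −0.56 and −0.53. LATS1 (ENSG00000131023; chromosome 6, 149658153 to 149718256) stood at 40.2 ± 3.03 CPM in the controls against 40.1 ± 4.16 CPM with miR-155OE (each n = 4, ± SD), with a 95% interval of the log2 fold change from −0.20 to 0.19. LATS2 made up 55.6 ± 1.95% of the LATS level per kb in CTRL and 48.7 ± 1.16% in miR-155OE.

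The co-activators differed from each other. YAP1 (ENSG00000137693; chromosome 11, 102110461 to 102233423) stood at 357, 319, 396 and 393 CPM in the controls against 335, 341, 385 and 382 CPM with miR-155OE. In both groups replicates 3 and 4 were the higher ones, and the log2 fold change was −0.02 with a 95% interval from −0.22 to 0.18. WWTR1 (ENSG00000018408; chromosome 3, 149517235 to 149736714) stood at 52.3, 46.4, 52.5 and 57.7 CPM in the controls against 59.6, 57.1, 74.8 and 74.1 CPM with miR-155OE. The groups overlapped only through CTRL replicate 4 and miR-155OE replicate 2, the log2 fold change was 0.35 (SE 0.10), and the pairs gave 0.19, 0.30, 0.51 and 0.36. WWTR1 was 9.66 ± 0.422% of the summed YAP1 and WWTR1 level per kb in CTRL and 12.1 ± 0.771% in miR-155OE (each n = 4, ± SD), and the sum itself was 64.3 ± 6.25 and 65.2 ± 5.24 CPM per kb. WWTR1 is thus a gene with a seed match whose level was higher in miR-155OE.

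TEAD1, a DNA-binding partner of YAP1 and TAZ (ENSG00000187079; chromosome 11, 12674591 to 12944483), stood at 80.4 ± 8.40 CPM in the controls against 75.2 ± 11.7 CPM with miR-155OE (each n = 4, ± SD), with a log2 fold change of −0.10 (SE 0.12, 95% interval −0.36 to 0.16). Replicate 4 was the lowest of each group, at 69.8 CPM in the controls against 58.4 CPM with miR-155OE. Among the 4 TEAD genes, compared per kb, TEAD3 led with 67.3 ± 2.16% of their summed level in CTRL and 70.8 ± 2.77% in miR-155OE, and TEAD1 followed with 21.7 ± 2.55% and 19.9 ± 3.32% (each n = 4, ± SD).

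AMOTL2 and ANKRD1 are both read as output of the pathway, since TEAD factors switch them on. AMOTL2 (ENSG00000114019; chromosome 3, 134355874 to 134375479) stood at 518, 482, 508 and 505 CPM in the controls against 393, 462, 369 and 431 CPM with miR-155OE. The groups did not overlap, with miR-155OE replicate 2 nearest to CTRL, and the log2 fold change was −0.28 (SE 0.08, 95% interval −0.46 to −0.10). ANKRD1, a nuclear ankyrin-repeat protein first known from heart muscle (ENSG00000148677; chromosome 10, 90912096 to 90921276), was nearly silent, with 1, 2, 0 and 1 reads in CTRL replicates 1 to 4 and 0, 10, 3 and 0 reads in miR-155OE replicates 1 to 4. Only miR-155OE replicate 2 exceeded 3 reads, which correspond to 0.0573 to 0.0901 CPM in these libraries, so no fold is given. These floors cover counting error only. The muscle genes MYH6, MYH7 and DES had no read in any library, and TNNT2 stood at 2.99 to 4.77 CPM in the controls against 4.32 to 5.45 CPM with miR-155OE.

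TEAD factors recognise the letters GGAATG (or CATTCC on the other strand). The promoters of AMOTL2, ANKRD1 and CCN2 are shown around these letters because these genes are among those read as output of the pathway. Windows of 250 bases before a RefSeq start site (GRCh38.p14) were searched on both strands, with the match in capitals:
AMOTL2: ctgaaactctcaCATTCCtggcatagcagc
ANKRD1, farther match: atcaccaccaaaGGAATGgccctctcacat
ANKRD1, nearer match: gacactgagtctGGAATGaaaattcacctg
CCN2, farther match: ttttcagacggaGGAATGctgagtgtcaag
CCN2, nearer 2 matches: gtggggaGGAATGcgaGGAATGtccctgt
All lie on minus-strand genes: AMOTL2 at chromosome 3, 134374499 to 134374528, in the window of 1 of its 2 start sites, ANKRD1 at chromosome 10, 90921290 to 90921319 and 90921198 to 90921227, and CCN2 at chromosome 6, 131951524 to 131951553 and 131951455 to 131951483. The matches begin 69 bases before the start site in AMOTL2, 220 and 128 in ANKRD1, and 169, 104 and 95 in CCN2. Of the 10 genes 9 had a window, and AMOTL2, ANKRD1, YAP1 and WWC2 held a match. Of the list of YAP1 and TAZ targets described further below, 13 genes had a window and 6 of them, CCN2 included, held a match. Of all 35116 windows 11.9% held at least 1 match, 0.940% at least 2 and 0.0826% at least 3. The same letters therefore stood before AMOTL2, among the most abundant of these genes, and before ANKRD1, which was nearly silent.

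**Figure D3:**
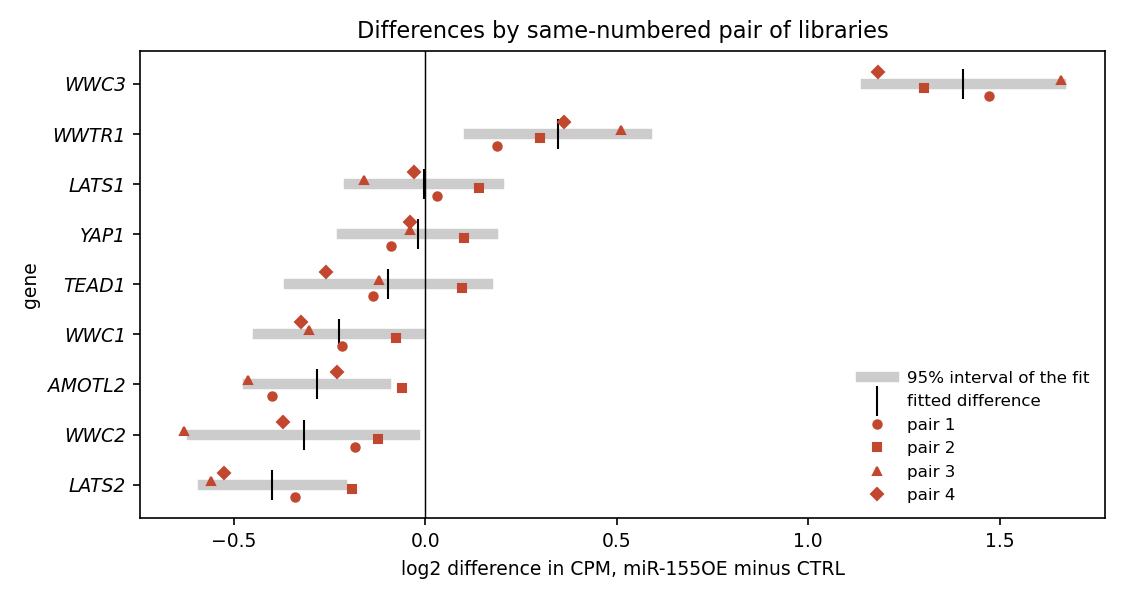
Log2 difference in CPM of miR-155OE minus CTRL for each tested gene, by same-numbered pair of libraries (symbols), with the fitted log2 fold change (black tick) and its 95% interval (grey bar). WWC3 and WWTR1 lie above 0 and WWC1, WWC2, LATS2 and AMOTL2 below 0 in 4 of 4 pairs, and pair 2 gives the value nearest 0 for each of those lower genes.

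By same-numbered pair, 2 of the 9 tested genes were higher in 4 of 4 pairs, 4 were lower in 4 of 4 pairs and 3 (LATS1, YAP1 and TEAD1) were mixed. Over all tested genes 18.8% were higher and 16.9% lower in 4 of 4 pairs. The groups did not overlap for WWC3 (higher, as for 6.16% of all tested genes) and for LATS2 and AMOTL2 (lower, as for 5.25%). The edgeR quasi-likelihood fit over all 15135 tested genes, at a false discovery rate of 0.05, held WWC3 among its 329 higher genes (2.17%) and LATS2 among its 159 lower ones (1.05%). With the replicate number as a block, WWC3 and WWTR1 were among 7.43% of genes called higher and WWC1, WWC2, LATS2 and AMOTL2 among 5.17% called lower. DESeq2 called 4 of the 9, WWC3, LATS2, WWTR1 and AMOTL2, beside 8.08% of all tested genes. Nothing is read from these counts, since the genes were taken up with this comparison known.

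Which genes were past the threshold depended on single libraries. Such calls are again not read as support for a difference, since the genes were taken up with this comparison known. For 5 of the 6 genes with a log2 fold change of at least 0.2 in size, miR-155OE replicate 2 was the overexpressing library nearest to the CTRL mean. Without it 5 of the 9 genes were past the threshold, WWC2, WWTR1 and AMOTL2 joining WWC3 and LATS2, while calls over all genes went from 3.22% to 8.23% in the same fit. Over the 8 fits that leave out 1 library, the log2 fold change ran from −0.47 (without miR-155OE replicate 2) to −0.36 (without replicate 4) for LATS2 and from −0.44 to −0.24 between the same fits for WWC2. It ran from −0.34 (without miR-155OE replicate 2) to −0.23 (without replicate 3) for AMOTL2, and from 0.42 to 0.29 between the same fits for WWTR1. Without any 1 of the other 7 libraries only WWC3 was past it and LATS2 was not. The WWC3 value ran from 1.33 (without miR-155OE replicate 3) to 1.502 (without CTRL replicate 4). In the authors' deposited table WWC3, LATS2, WWTR1 and AMOTL2 were called at an adjusted p under 0.05, with log2 fold changes of 1.41, −0.40, 0.35 and −0.28, beside 4.73% of the genes in that table.

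The tested neighbours of WWC3 on the chromosome were read next. Within 3 Mb on either side, 14 other genes were tested, of which 1 rose and 0 fell (edgeR, group alone), and their median log2 fold change was 0.01. The nearest tested genes, SHROOM2, an actin-binding junction protein (log2 fold change −0.21, SE 0.08, adjusted p = 0.172), and CLCN4, a chloride-proton exchanger (0.82, SE 0.35, adjusted p = 0.230), did not pass the test. The gene that rose was STS, the steroid sulfatase, at 2.85 ± 0.334 CPM in the controls against 5.49 ± 0.238 CPM with miR-155OE (each n = 4, ± SD; fitted log2 difference 0.94, SE 0.13, edgeR adjusted p = 0.00553). With the replicate block TBL1X (adjusted p = 0.0114), PUDP (0.0480) and CLCN4 (0.0388) also passed, each higher, beside 7.43% of all tested genes called higher. Over the 464 tested genes of chromosome X, 11 rose and 6 fell on group alone, where 2.17% of all tested genes rose and 1.05% fell. The neighbours were picked after the WWC3 value was seen.

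**Figure D4:**
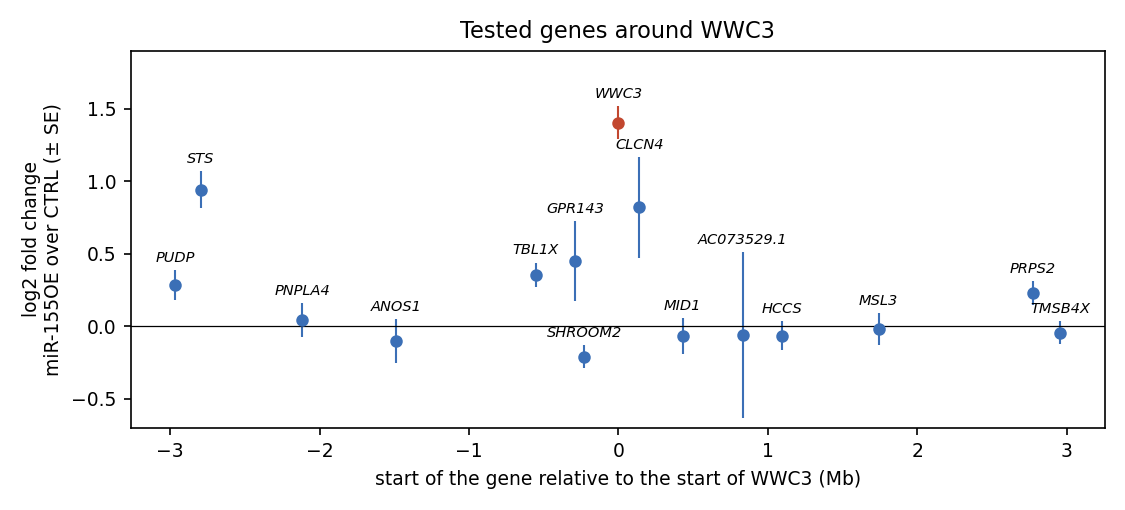
Log2 fold change of each tested gene within 3 Mb of WWC3, with its SE, against the distance of its start from the start of WWC3 in Mb. WWC3 (red) stands at 1.40, STS at 0.94, CLCN4 at 0.82, GPR143 at 0.45 and TBL1X at 0.35, and the median of the 14 neighbours is 0.01.

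Among 12560 other genes with a mean of at least 1 CPM and reads in every library, the profile over the 8 libraries most like that of WWC3 belonged to the antisense transcript AL691432.2, then C8orf82, on chromosome 8, and ADAMTS17, a secreted metalloprotease. Likeness was the root mean square difference of log2 CPM centred on its mean, which was 0.17, 0.18 and 0.19 for these genes. AL691432.2 stood at 1.73 ± 0.204 CPM in the controls against 5.49 ± 0.741 CPM with miR-155OE, C8orf82 at 11.2 ± 2.02 and 24.4 ± 3.56 CPM, and ADAMTS17 at 0.673 ± 0.0572 and 1.66 ± 0.566 CPM (each n = 4, ± SD).

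The rest of the pathway was read from a list of 57 regulators, taken from textbook knowledge of the cascade. Of the 54 that could be tested, 0 rose, 2 fell and 52 did not pass (edgeR, group alone), 3.70% against 3.22% of all tested genes. At an unadjusted p under 0.05 there were 1 higher and 11 lower, beside 1614 higher and 1311 lower of all 15135 genes. DESeq2 called 0 higher and 4 lower, 7.41% against 8.08% of all genes. The median log2 fold change of the list was −0.07, with 37 of 54 genes (68.5%) below 0, beside −0.01 and 51.3% over all tested genes, and it was −0.05 without miR-155OE replicate 4. With the replicate block 1 rose and 7 fell, 14.8% against 12.6% of all genes. AMOT, MAP4K1 and DCHS1 had too few reads.

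The regulators that fell were PALS1 and TNIK. PALS1 (listed as MPP5), an apical polarity scaffold that recruits Hippo regulators to tight junctions, stood at 42.4, 43.5, 42.1 and 36.6 CPM in the controls against 30.1, 33.6, 25.4 and 23.8 CPM with miR-155OE (log2 fold change −0.54, SE 0.11, edgeR adjusted p = 0.0322). Its 3′ UTR held 2 seed matches, and ATP6V1D, which overlaps it, had a log2 fold change of 0.04. TNIK, a kinase of the MAP4K group, was scarce, at 1.35 ± 0.339 CPM in the controls against 0.448 ± 0.215 CPM with miR-155OE (each n = 4, ± SD; fitted log2 difference −1.58, SE 0.34, edgeR adjusted p = 0.0367). Next by p came CSNK1E, a casein kinase that marks YAP1 for degradation after LATS phosphorylation, which did not pass on group alone (144 ± 18.4 against 106 ± 12.4 CPM, SD, n = 4 each; log2 fold change −0.44, SE 0.11, adjusted p = 0.0515) and fell with the replicate block (adjusted p = 0.0188). PALS1 lost its call without each library other than CTRL replicate 4 and miR-155OE replicate 2 (at most an adjusted p = 0.0974), and TNIK without each library other than miR-155OE replicate 2 (at most an adjusted p = 0.107).

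Of the listed regulators next to LATS in the cascade, STK3, STK4, SAV1 and MOB1A did not pass on group alone. All but STK3 were named after their values were seen. SAV1 had a log2 fold change of −0.18 (edgeR adjusted p = 0.245, and 0.0995 with the block). It was lower in 4 of 4 pairs, and its groups did not overlap, as for 5.25% of all tested genes (lower). STK4, which with STK3 starts the cascade, stood at 0.00 on the log2 scale, and MOB1A, a co-activator of LATS, at −0.01. STK3 lies on chromosome 8. It stood at 49.6 ± 4.90 CPM in the controls against 56.5 ± 4.27 CPM with miR-155OE (each n = 4, ± SD; fitted log2 difference 0.19, adjusted p = 0.259) and was the 1 regulator that rose with the replicate block (adjusted p = 0.0489). SCRIB, a polarity scaffold on the same chromosome, had a log2 fold change of 0.10 (adjusted p = 0.565). With the block, 5 more regulators fell, named after their values were seen and given with their blocked log2 fold changes: AJUBA, a LIM protein that inhibits LATS (−0.28), VGLL3, a TEAD cofactor (−0.35), the STK3 and STK4 partners RASSF1 (−0.41) and RASSF5 (−0.42), and CSNK1E (−0.44). The part of the chromosome in the STK3 value was not tested.

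The output of the cascade was read from a published pan-cancer signature of YAP1 and TAZ target genes, without the 3 members AMOTL2, LATS2 and ANKRD1 that are described above. Of the 19 genes, all tested, 1 rose, 2 fell and 16 did not pass (edgeR, group alone), 15.8% against 3.22% of all tested genes. Their median log2 fold change was −0.32, with 15 of 19 (78.9%) below 0, beside −0.01 and 51.3% over all tested genes. The median was −0.18 without miR-155OE replicate 3 and −0.20 without CTRL replicate 2. With the replicate block 2 rose and 8 fell, 52.6% against 12.6% of all genes. Since LATS2 and AMOTL2 were taken up with their differences known, the targets are not independent support for them.

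The 2 targets that fell were GADD45A, a stress-induced growth-arrest gene, and DOCK5, an activator of RAC. GADD45A stood at 194, 181, 183 and 187 CPM in the controls against 130, 161, 129 and 157 CPM with miR-155OE, with no overlap (log2 fold change −0.37, SE 0.08, edgeR adjusted p = 0.0462). DOCK5 stood at 12.3 ± 1.43 CPM in the controls against 7.69 ± 1.70 CPM with miR-155OE (each n = 4, ± SD; fitted log2 difference −0.68, SE 0.15, edgeR adjusted p = 0.0445). DOCK5 and ASAP1 both lie on chromosome 8, and ASAP1, a regulator of the actin skeleton, had a log2 fold change of 0.71 (adjusted p = 0.0663) that passed with the block (adjusted p = 0.00273). With chromosome 8 genes left out of the fit, the log2 fold change of GADD45A was −0.36 and its adjusted p = 0.0540. GADD45A lost its call without each library other than miR-155OE replicate 2 (at most an adjusted p = 0.128), and DOCK5 without each library other than CTRL replicate 4 and miR-155OE replicate 2 (at most an adjusted p = 0.124).

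FOXF2, a forkhead factor of mesenchymal cells, was the target that rose, from 1, 3, 0 and 1 reads in CTRL replicates 1 to 4 to 34, 15, 61 and 21 reads in miR-155OE replicates 1 to 4. Its log2 fold change was 4.66 (SE 0.69, edgeR adjusted p = 0.00871), but its CTRL level lay at or under 3 reads in each library, so the size of the fold is uncertain, and it ran from 4.14 to 5.52 over the fits that leave out 1 library. The fibroblast markers COL1A2, COL3A1, DCN and LUM, read beside it, had no read in any library, and COL1A1 ranged from 92.8 to 145 CPM in the controls and from 98.1 to 221 CPM with miR-155OE.

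The targets CCN2, CCN1, F3 and TGFB2, picked after their values were seen, did not pass on group alone in edgeR and passed with the replicate block. CCN2 (listed as CTGF), a matricellular protein, stood at 34.9, 53.8, 48.0 and 49.9 CPM in the controls against 16.6, 40.3, 15.2 and 26.7 CPM with miR-155OE. It overlapped only through CTRL replicate 1 and miR-155OE replicate 2, and its log2 fold change was −0.92 on group alone (SE 0.28, adjusted p = 0.0977) and −1.001 with the block (SE 0.16, adjusted p = 0.00541). CCN1 (listed as CYR61), its paralog, stood at 84.1 ± 13.6 CPM in the controls against 67.6 ± 19.1 CPM with miR-155OE (each n = 4, ± SD; −0.32, adjusted p = 0.374 on group alone, and −0.34, adjusted p = 0.0196 with the block). Tissue factor F3 stood at 241 ± 23.5 and 141 ± 51.3 CPM (each n = 4, ± SD; adjusted p = 0.0697, and 0.00411 with the block), and the growth factor TGFB2 at 4.29 ± 0.800 and 2.21 ± 0.806 CPM (each n = 4, ± SD; adjusted p = 0.0636, and 0.00759 with the block). Without miR-155OE replicate 2 all of CCN2 (adjusted p = 0.00716), CCN1 (0.0240), F3 (0.00316) and TGFB2 (0.0141) passed on group alone in edgeR. DESeq2 called F3 (adjusted p = 0.00499) and TGFB2 (0.0062), and edgeR with no filter on low counts called CCN2 (0.0134), F3 (0.00765) and TGFB2 (0.0180). FJX1 and the kinase NUAK2 also fell with the block, by 0.35 and 0.48 on the log2 scale. The 3′ UTRs searched held 1 seed match in CCN1, 2 in F3 and 1 in TGFB2, and none in CCN2, FJX1 or NUAK2. The part of these matches in the levels was not tested. Not all targets lay lower: IGFBP3, a binding protein of insulin-like growth factors, had a log2 fold change of 0.58 (SE 0.25, adjusted p = 0.233). AXL, a receptor kinase, lay only slightly lower, at −0.08 (adjusted p = 0.817).

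**Figure D5:**
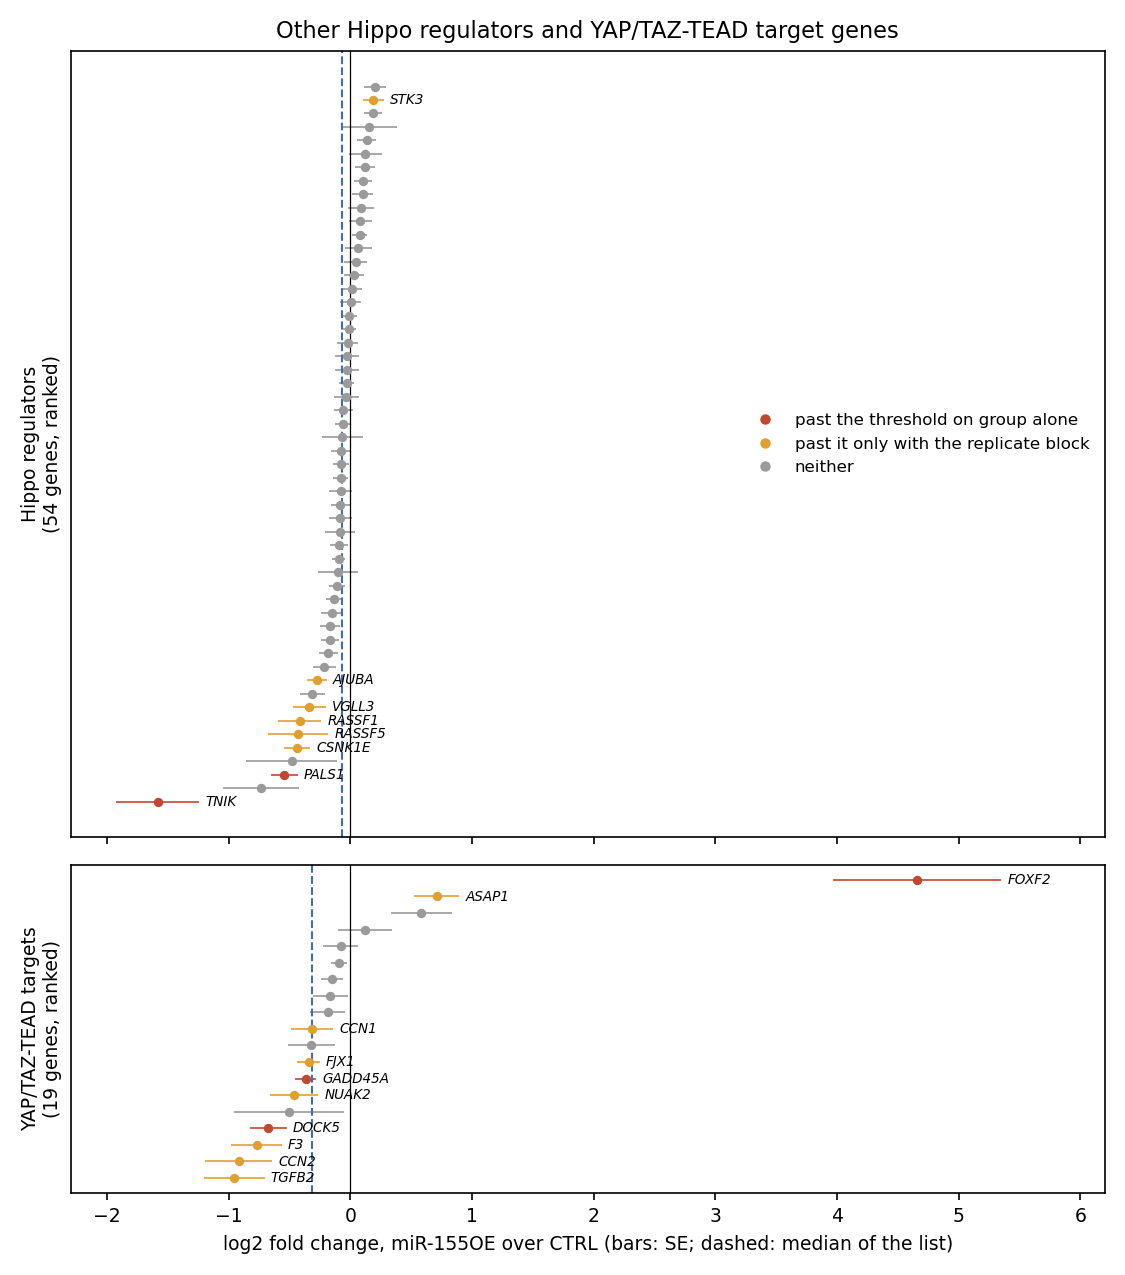
Log2 fold change of miR-155OE over CTRL, with its SE, for the 54 tested regulators (upper panel) and the 19 targets (lower panel), ranked, with the median of each list as a dashed line. The median is −0.07 for the regulators, with TNIK lowest at −1.58, and −0.32 for the targets, which run from TGFB2 at −0.95 to ASAP1 at 0.71, with FOXF2 apart at 4.66.

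Seed matches were set beside these lists as a last description. Of the 75 different genes of both lists 22 held a match in the UTR searched. Of these 0 rose and 2, PALS1 and DOCK5, fell (edgeR, group alone), 9.09% against 3.22% of all tested genes. Their median log2 fold change was −0.10, beside −0.01 over all tested genes. Among the 50 tested genes without a match 1 rose and 2 fell, 6% of them, and the median was −0.08. With the replicate block 7 of the 22 and 11 of the 50 were called, 31.8% and 22.0%, beside 12.6% of all genes. Leaving out 1 library gave 0 to 6 calls among the genes with a match and 1 to 8 among those without, both highest without miR-155OE replicate 2. Over all tested genes the same fits called 0.81 to 8.23%, also highest without that library. The medians ran from −0.09 to −0.14 with a match and from −0.05 to −0.09 without.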

How the data were processed

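The deposited raw counts are whole numbers of reads per Ensembl gene, per the file headers. The other deposited table gives, for each library, a normalised signal that from its values is the count divided by 1 factor per library, with the authors' log2 fold change and the authors' p-value and adjusted p-value. It was used only for its calls and fold changes of the 10 genes. Listed in the submitters' processing notes are the build GRCh38, DESeq2, featureCounts 1.5.0-p3 and HISAT2 2.0.5. Strand setting and annotation release are not given in the sources used here, so reads of overlapping genes cannot be told apart.

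Counts were analysed with edgeR 4.0.16 in R 4.3.3 (filterByExpr, TMM factors, quasi-likelihood F test on group alone, Benjamini-Hochberg adjustment over 15135 genes). CPM values use TMM-scaled library sizes, and CPM per kb divides them by the deposited gene length. The SE was derived from the fold change and its F statistic. limma 3.58.1 (voom) and DESeq2 1.42.0 were alternatives, with upper-quartile factors, no filter, no chromosome 8 genes, and each library left out. Figures used matplotlib 3.10.9. The fits were also tested on simulated data, into which no replicate effect was put. On group alone edgeR recovered 83% of the genes changed by 1 on the log2 scale and 38% of those changed by 0.5. With the replicate block it recovered 83% and 33%. Many true changes of 0.5 were thus missed.

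The genes, lists and tests were chosen with earlier results of these data known. The named list genes are those past the threshold on group alone, filled up to the 3 lowest p per list, and those on chromosome 8, with the 3 genes most like WWC3 and genes overlapping a member. Other genes of the lists, among them STK4, SAV1, MOB1A, TEAD3, IGFBP3, AXL, FJX1 and NUAK2, were named after their values were seen. Whether replicate numbers pair the libraries was checked by correlating, over 10267 genes (not independent replicates), how same-numbered libraries deviated from their group's mean: r was 0.578, 0.497, 0.184 and 0.607. All exceed 0.1, so the numbers were used as pairs in the description and the block, while the main fit is on group alone. Some differently numbered libraries also correlated: 0.399 for CTRL 4 with miR-155OE 3, 0.203 for CTRL 3 with miR-155OE 4, 0.275 for CTRL 1 with miR-155OE 2 and 0.267 for CTRL 2 with miR-155OE 1. Between replicates 1 or 2 and replicates 3 or 4, r was −0.574 to −0.103. For replicate 3 the same-numbered value was not the highest, so pairs cannot be told from a split of replicates 1 and 2 against 3 and 4. Pairs of libraries within a group differed beyond counting error (chi-square per degree of freedom 15.8 to 82.5).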

Additional observations from a re-analysis of the deposited data

How the results depend on the processing

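The 9 tested genes kept their fitted log2 fold changes within 1 SD between libraries in all 126 values computed under the alternatives. Of these, 54 refit the same 8 libraries and the others leave out 1 of them. The values therefore had little room to move that far, and nothing is read from this count. The count of calls moved more. With the replicate block 1908 genes were called in all, with 6 of the 9 genes, 8 regulators and 10 targets. DESeq2 called 1223, 4, 4 and 7 of these, and without a filter on low counts 927 genes and 7 targets were called. Without chromosome 8 genes 1 target was called. Leaving out 1 library at a time gave 125 to 1274 genes in all, 1 to 5 of the 9, 0 to 5 regulators (where 0 were called, 6 to 9 had an unadjusted p under 0.05) and 1 to 9 targets, the highest each without miR-155OE replicate 2. The cause was not tested, except that the last of these fits hold fewer libraries and that without chromosome 8 genes DOCK5 and ASAP1 are not tested. The listed genes with a seed match, 2 called on group alone, gave 7 with the block, 5 with DESeq2, 5 without a filter and 1 without chromosome 8 genes, and those without a match (3) gave 11, 6, 5 and 2. With voom or upper-quartile factors the 4 counts of the fits above stayed within 1.5 times. The block changed no call of a named gene other than those given beside it. A gene that did not pass is not shown to be unchanged. ANKRD1 and FOXF2 in CTRL are limited by depth, at or near 3 reads per library.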
